A study of Mus musculus with 52 samples.

Results

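The genes described here are the members of 7 families of solute carriers that move amino acids across membranes, Slc1, Slc3, Slc6, Slc7, Slc36, Slc38 and Slc43. They were chosen by symbol alone, as the genes of the deposited table whose symbol is one of these family names followed by the letter a and a number and nothing more, which gave 60 of 24116 genes. Symbols that end in a further letter, such as Slc6a20a and Slc6a20b of the Slc6 family, are outside the rule. Of the 60, 31 reached 1 RPKM (reads per kilobase of gene, scaled to the size of the library) in 4 or more libraries and were tested, and 29 did not. The tested members were 3 of 7 in Slc1, 2 of 2 in Slc3, 7 of 18 in Slc6, 10 of 15 in Slc7, 1 of 4 in Slc36, 7 of 11 in Slc38 and 1 of 3 in Slc43.

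Enterocytes of the small intestine take up amino acids at the apical membrane, among other routes through Slc6a19 for neutral amino acids, through the pair of the heavy chain Slc3a1 and the light chain Slc7a9 for cystine and basic amino acids, and through Slc1a1 for glutamate and aspartate. They pass them to the blood at the basolateral membrane through Slc7a7 and Slc7a8, light chains that need the heavy chain Slc3a2 to reach the surface, and through uniporters such as Slc43a2. Growing cells use a different set, with Slc7a5 for large neutral amino acids, Slc7a11 for cystine, Slc7a1 and Slc7a3 for basic amino acids and Slc38a2 for small neutral ones, and several of these genes are known targets of the transcription factor ATF4 when amino acids run short.

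The libraries came from intestinal organoids, epithelial cultures grown here from single cells of 2 wild type male C57BL/6 littermates of 8 weeks, 1 culture from each animal. Each culture was treated with the vehicle DMSO, with 10 µM all-trans retinoic acid (atRA) or with 5 µM of an antagonist of the retinoid X receptors (RXRi), given on day 0 and again on day 3, and RNA was taken on days 1, 3, 4 and 5 and, for DMSO, also on day 0. The 13 groups thus were day 0 DMSO and DMSO, atRA and RXRi on each of the 4 later days, each with 2 cultures and RNA purified in duplicate from 3 pooled wells. All groups up to day 3 also received 20% Wnt3a-conditioned medium, 10 µM of the ROCK inhibitor Y-27632 and 3 µM of the GSK3 inhibitor CHIR99021, and all grew in medium with EGF, Noggin, R-spondin, N-acetylcysteine and a stable glutamine source, so the step from day 3 to day 4 is also a change of medium.

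The 51 libraries used held 12895669 to 26206030 reads (median 19686973), so that 3 reads of a gene of 1 kb equal 0.233 RPKM in the shallowest. The second duplicate of culture 1 of day 1 DMSO held 12443 reads and was left out, which leaves that culture with 1 library. Differences are of log2(RPKM + 1) with the standard error of the fit, n = 2 cultures a group, tested two-sided in limma with Benjamini-Hochberg adjustment within a comparison over 12443 genes, called at an adjusted p under 0.05. Both cultures come from animals of 1 litter, so the p-values measure the spread between these 2. The markers of fibroblasts (5 of 5, with Col3a1, Dcn and Lum at 0 throughout) and of endothelium (3 of 3) stayed under 1 RPKM in every library, as did 3 of 4 leukocyte markers, Lyz2 being the exception. In such bulk samples, fewer cells of a type and less RNA per cell cannot be told apart.

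The most abundant members over all 51 libraries were Slc3a2 with a mean of 84.2 RPKM, the glutamine carrier Slc1a5 with 72.7 RPKM, Slc38a2 with 58.2 RPKM, Slc7a5 with 53.4 RPKM and the taurine carrier Slc6a6 with 52.7 RPKM. In all, 16 members were at or above 1 RPKM in every library. Among these 16, the ratio of the highest to the lowest group mean ran from 1.51 for Slc38a10, a relative of the glutamine carriers, to 7.2 for Slc7a5 and 19.5 for the glycine carrier Slc6a9. The heat map of group means shows genes at a near constant level and genes nearly dark in every RXRi group from day 3 on. A few were brighter in the RXRi groups. Others changed mainly between days, such as Slc7a4, highest at 22.2 RPKM on day 0 and lowest at 5.65 RPKM in day 1 RXRi.

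**Figure D1:**
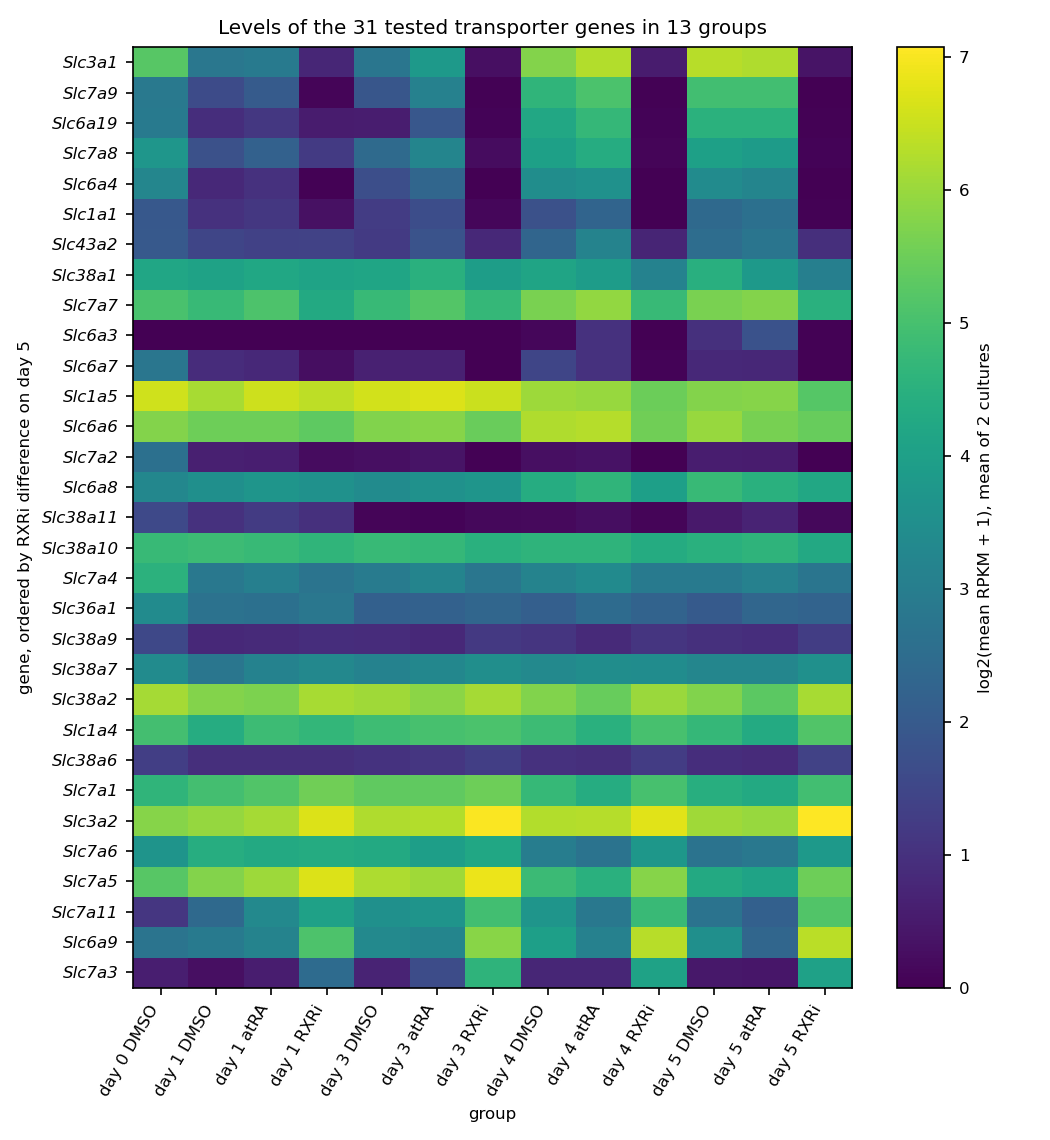
Rows are the 31 tested members, ordered by their RXRi difference on day 5, columns are the 13 groups, and colour is log2 of the group mean RPKM plus 1 (mean of 2 cultures). The top rows, such as Slc3a1 at 78.9 RPKM in day 5 DMSO and 0.30 RPKM in day 5 RXRi, darken with RXRi, and the bottom rows, such as Slc7a3 at 0.37 and 15.5 RPKM, brighten.

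Some members lay at the edge of the filter. Slc7a2, a carrier of basic amino acids, passed through the 4 day 0 libraries alone, at 5.18, 5, 5.2 and 5.07 RPKM, and stayed at or under 0.642 RPKM in all others. The dopamine carrier Slc6a3 passed with 6 libraries of 3 groups. Just outside were the glutamate carrier Slc1a3 and the large neutral amino acid uniporter Slc43a1 with 3 libraries each (highest values 1.39 and 1.25 RPKM), and Slc7a15 with 2 (2.01 RPKM). A further 4 members, Slc1a6, Slc6a2, Slc7a12 and Slc7a13, were listed at 0 in all 51 libraries. A member that passed through 1 or a few groups had to differ between groups, so counts over the tested members are descriptions and not support for a change of the families as such.

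From day 0 to day 1 of DMSO, 18 of 31 members fell and 4 rose, beside 35.6% and 25.6% of all tested genes. The apical list (Slc6a19, Slc3a1, Slc7a9, Slc1a1, the proton-coupled carrier Slc36a1, Slc6a6, Slc1a5, and the untested Slc6a14 and Slc38a5) fell in 7 of 7 tested members, with a median difference of -0.96, beside a median of -0.09 for all tested genes. Not all 7 calls were firm: without culture 1 of day 1, Slc6a6 (-0.19, adjusted p = 0.19) and Slc36a1 (-0.56, 0.069) lost theirs, and without culture 2 of day 1, Slc1a5 did (-0.35, 0.072). Slc6a6 also lost it without culture 1 (-0.23, 0.12) or culture 2 of day 0 (-0.28, 0.058) and under median-of-ratios scaling (-0.16, 0.22). Slc3a1 stood at 37.6, 36.9, 37.8 and 34.7 RPKM on day 0 and at 5.2, 8.15 and 5.7 RPKM on day 1, a difference of -2.44 ± 0.19 (adjusted p = 2.0e-08). The 2 days did not overlap. The serotonin carrier Slc6a4, which clears serotonin at the enterocyte surface, was at 7.45, 8.16, 9.57 and 8.78 RPKM and then at 0.697, 0.687 and 1.02 RPKM (-2.42 ± 0.22, adjusted p = 1.2e-07). Slc7a2 fell by 2.00 ± 0.08, Slc7a8 by 1.96 ± 0.31 and Slc6a7, a brain proline carrier by its known site, by 1.88 ± 0.10. Slc7a2 passed the filter through day 0 alone and so had to lie lower on day 1. Its fall is a description and not support for a change. Among the 4 that rose, Slc7a6, a second light chain for basic amino acids, went from 11.4-12.3 RPKM to 19.7-20.7 RPKM (0.75 ± 0.10, adjusted p = 7.6e-06). The rises of Slc7a11 (1.31), Slc7a5 (0.53) and Slc7a1 (0.32) were smaller against their error. Slc7a11 lost its call without any 1 of the 4 cultures (1.11 to 1.50, adjusted p 0.062 to 0.16), Slc7a5 lost it without culture 2 of day 0 (0.37, adjusted p = 0.12) or culture 1 of day 1 (0.50, 0.051), and Slc7a1 without culture 2 of day 0 (0.17, 0.3), culture 1 of day 1 (0.35, 0.068) or culture 2 of day 1 (0.30, 0.11). With the shallow library kept, 18 members were called in place of 22, and Slc7a1 turned to -0.91. Over the same day, the summed RPKM of 7 enterocyte markers went from 517-725 to 219-303 and that of 5 stem cell markers from 1309-1391 to 245-253. That of 5 fetal-like markers went from 33.4-55.9 to 1278-1306. The part of any of these shifts in the transporter differences was not tested.

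Between day 1 and day 3, 3 members rose and 2 fell, beside 6.19% and 6.49% of all tested genes. Slc6a4 rose by 0.86 ± 0.22 and Slc1a5 by 0.46 ± 0.13, and Slc38a11, an orphan relative of the glutamine carriers, fell by 0.90 ± 0.18. Slc38a11 went from 0.596, 1.38 and 1.52 RPKM to values between 0.0241 and 0.114 RPKM, while the summed RPKM of 5 enteroendocrine markers fell from 2028-2499 to 73.5-107, a parallel whose part in the result was not tested. These calls rest on few libraries. Without culture 2 of day 1 DMSO, 0 of 5 held (Slc38a11 -0.59 with an adjusted p of 0.073, Slc1a5 0.38 with 0.19, Slc6a4 0.92 with 0.062). Leaving out culture 1 of day 1 left 2 calls (Slc6a4 0.80, adjusted p = 0.11), leaving out culture 1 of day 3 left 1 (Slc1a5 0.51, 0.084, and Slc6a4 0.83, 0.11) and leaving out culture 2 of day 3 left 2 (Slc1a5 0.42, 0.12, and Slc6a4 0.89, 0.059) and added 1 that was not among the 5. With the culture as a replicate block, 9 members were called, adding Slc7a3 (0.40, adjusted p = 0.032), Slc36a1 (-0.48, 0.027), the alanine and serine carrier Slc1a4 (0.48, 0.019) and Slc38a2 (0.32, 0.029).

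Between day 3 and day 4 of DMSO, 12 members rose and 5 fell, beside 20.5% and 34.3% of all tested genes. Slc6a19 was at 0.639, 0.174, 0.643 and 0.457 RPKM on day 3 and at 8.42, 9.22, 27.6 and 26.2 RPKM on day 4, a difference of 3.50 ± 0.50 (adjusted p = 2.4e-05). Culture 2 stood well above culture 1 on day 4, and both lay above all day 3 libraries. Slc3a1 went from 6.59, 6.99, 4.32 and 5.59 RPKM to 53.8, 57.4, 50.6 and 53.2 RPKM (3.01 ± 0.19, adjusted p = 5.7e-09). Its partner Slc7a9 went from 2.56, 3.15, 2.06 and 3.25 RPKM to 21.5, 21.8, 25.9 and 26.1 RPKM (2.73 ± 0.18, adjusted p = 8.4e-09). Both chains of the cystine carrier thus rose together and without overlap. Slc6a4 rose by 1.74 ± 0.22, and the basolateral light chains rose too, Slc7a8 by 1.51 ± 0.31 and Slc7a7 by 0.87 ± 0.13, as did Slc43a2 by 1.09 ± 0.25 and the creatine carrier Slc6a8 by 0.94 ± 0.14.

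The members that fell at this step were Slc7a5, Slc7a6, Slc7a1, Slc1a5 and Slc38a2. Slc7a5 was at 72.7, 79.2, 70.1 and 70.3 RPKM on day 3 and at 25.6, 28.1, 28.5 and 26.9 RPKM on day 4 (-1.39 ± 0.16, adjusted p = 3.2e-06), with no overlap. Slc7a6 fell by 1.28 ± 0.10. The fall of Slc38a2, by 0.33 ± 0.11, was lost when the columns were scaled by median of ratios (-0.17, adjusted p = 0.19), without culture 1 of day 3 (-0.23, 0.15) and without culture 2 of day 4 (-0.19, 0.19). That scaling moved the median of all genes by 0.12 and gave 14 members higher and 4 lower, and it changed the share of higher calls among all called genes from 37.4% to 52%. Across the same step, the 7 enterocyte markers rose in 7 of 7, their summed RPKM going from 156-212 to 3725-4463, and the 3 proliferation markers fell in 3 of 3, from 243-268 to 107-139. The part of either in the transporter differences was not tested.

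From day 4 to day 5, 1 member rose and 1 fell, beside 2.11% and 1.33% of all tested genes. Slc1a1 went from 2.62, 2.95, 1.95 and 1.96 RPKM to 4.95, 5.31, 3.53 and 3.41 RPKM (0.65 ± 0.17, adjusted p = 0.044), and Slc6a7 fell by 0.55 ± 0.10 from day 4 values of 3.41 and 0.454 RPKM in the duplicates of culture 1 and 1.37 and 1.94 RPKM in culture 2. Neither call was firm. Slc1a1 lost its call without culture 2 of day 4 (0.47, adjusted p = 0.35) or culture 1 of day 5 (0.42, 0.3), Slc6a7 without culture 2 of day 4 (-0.52, 0.058), and leaving out culture 2 of day 5 gave 7 calls.

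Set against day 0, day 5 of DMSO had 10 members higher and 12 lower, beside 18.7% and 51.1% of all tested genes. Slc7a9 was higher by 2.08 ± 0.18, Slc6a8 by 1.47 ± 0.14 and Slc3a1 by 1.07 ± 0.19. Lower were Slc7a2 by 2.06 ± 0.08, Slc6a7 by 1.97 ± 0.10 and Slc7a4, an Slc7 member of unknown substrate, by 1.66 ± 0.22. The fall of Slc7a2 was again fixed by the filter, which it passed through day 0 alone. Slc7a4 was at 23.1, 21, 20.7 and 24.1 RPKM on day 0 and at 4.53, 4.71, 8.64 and 8.46 RPKM on day 5. Its day 1 values of 6.41, 5.63 and 6.13 RPKM were already in that lower range. The rise of Slc6a19 (1.49) lost its call without culture 2 of day 0 (1.35, adjusted p = 0.073) or culture 2 of day 5 (0.93, 0.17). Median-of-ratios scaling moved the median of all genes by 0.32, gave 12 members higher and 9 lower, changed the share of higher calls among called genes from 26.9% to 53.1%, and turned Slc38a10 from -0.26 to 0.10.

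**Figure D2:**
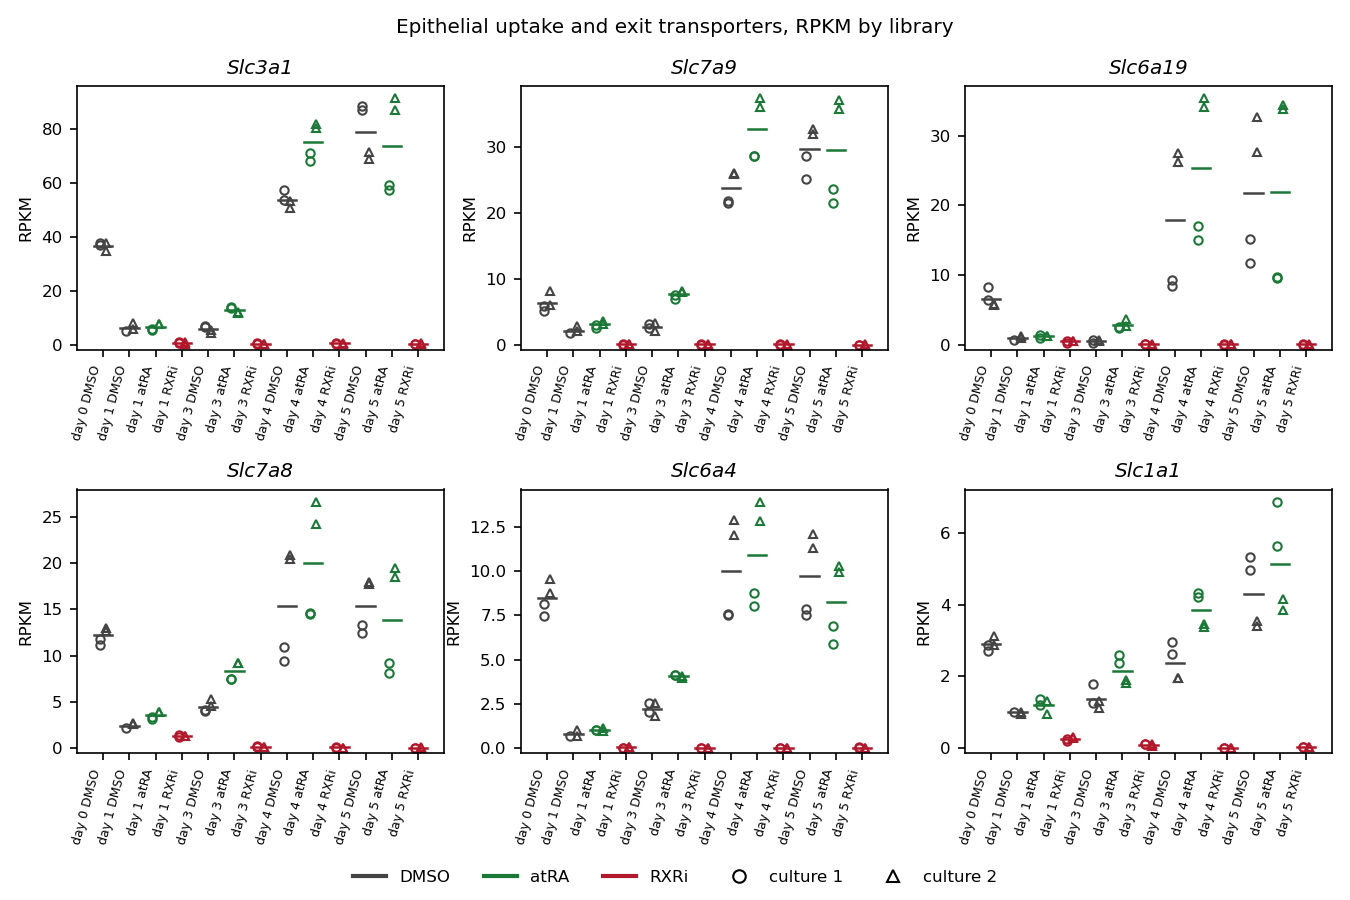
Each panel plots RPKM (vertical axis, linear) of 1 gene in each library by group, circles for culture 1, triangles for culture 2, lines for the mean of the 2 cultures, and colour for the treatment. All 6 genes were low in the RXRi groups of days 3 to 5, with Slc7a8 highest there at 0.269 RPKM outside Slc3a1 (0.534 RPKM), and Slc6a19, Slc7a8 and Slc6a4 were higher in culture 2 than in culture 1 on days 4 and 5 of DMSO and of atRA.

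RXRi changed members of every family but Slc36. On day 1, 8 members were higher and 7 lower than DMSO, beside 10.5% and 9.93% of all tested genes. On day 3 the counts were 7 and 9 (18.4% and 25.4%), on day 4 they were 7 and 15 (22.0% and 37.0%), and on day 5 they were 11 and 15 (28.7% and 35.1%). The day 3 count of 16 fell to 10 without culture 2 of DMSO or without culture 1 of RXRi (the weaker Slc7a11 at 1.11 with an adjusted p of 0.2 and 1.25 with 0.16), and to 9 with the shallow library of day 1 kept. On day 1, keeping that library gave 11 calls in place of 15. The day 1 count also fell with any 1 culture left out. Slc7a7 (-0.41 to -0.50), Slc7a11, Slc38a2 and Slc6a4 lost their day 1 calls in each of those fits. For 15 of the 31 members the RXRi difference itself differed between days (limma F test, adjusted p under 0.05), beside 38.5% of all tested genes. Median-of-ratios scaling moved the day 4 median of all genes by 0.12, with 9 members higher and 13 lower, and the share of higher calls from 37.3% to 49.7%.

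**Figure D3:**
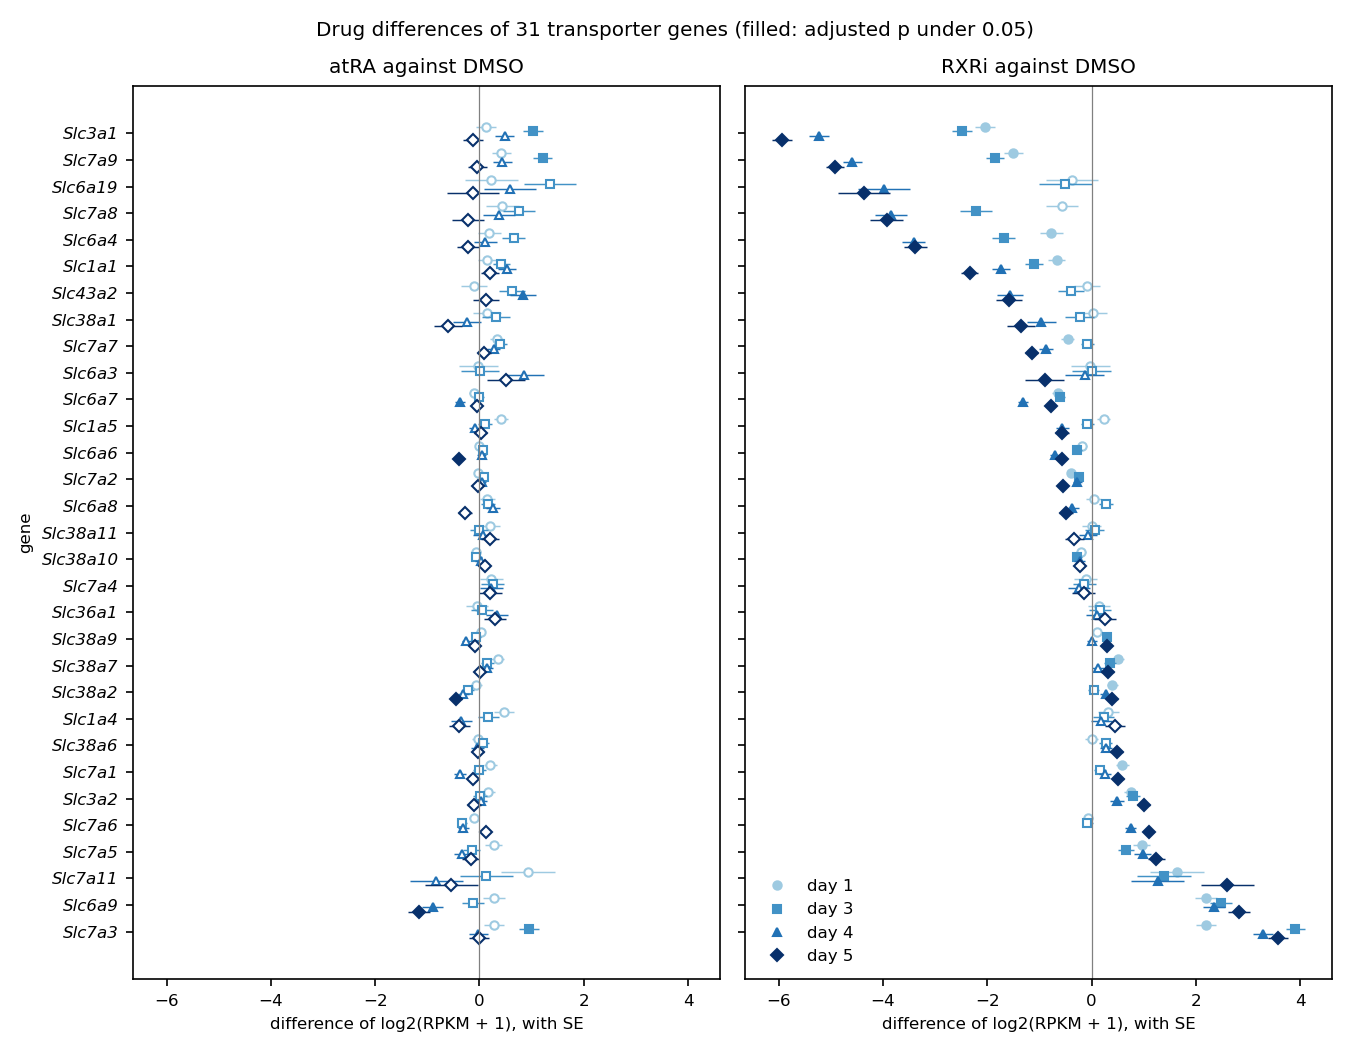
Points are differences of log2(RPKM + 1) from DMSO of the same day, with standard errors as bars, for atRA (left) and RXRi (right), with a marker shape for each day and filled markers for an adjusted p under 0.05. RXRi differences reach -5.94 for Slc3a1 and 3.91 for Slc7a3, whereas atRA differences lie between -1.16 and 1.36.

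Of the 7 tested apical members, RXRi lowered 3 on day 1, 4 on day 3, 6 on day 4 and 6 on day 5, and raised 0 on any of these days, with median differences of -0.38, -0.50, -1.73 and -2.34. Over all tested genes the medians were 0.00, -0.07, -0.13 and -0.06. Of all tested genes, 9.93%, 25.4%, 37.0% and 35.1% were lower on these days and 10.5%, 18.4%, 22.0% and 28.7% higher. The day 3 count includes Slc6a6 (-0.28), which lost its call without any 1 of the 4 cultures (-0.26 to -0.29, adjusted p 0.07 to 0.11) and under median-of-ratios scaling (-0.23, 0.1). Slc3a1, on chromosome 17 (85028347 to 85064241, GRCm38.p6), stood at 88.6, 87, 69 and 71.3 RPKM with DMSO on day 5 and at 0.156, 0.253, 0.291 and 0.516 RPKM with RXRi, a mean 260-fold lower and a difference of -5.94 ± 0.19 (adjusted p = 6.0e-14). The RXRi values rest on 5 to 29 reads a library. Already on day 1 it was at 0.676, 0.886, 0.401 and 0.838 RPKM against 5.2, 8.15 and 5.7 RPKM (-2.04 ± 0.19). Slc3a1 was thus lower with RXRi before the step from day 3 to day 4 at which it rose in DMSO.

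Slc7a9, on chromosome 7 (35448727 to 35466034, GRCm38.p6), was at 25.2, 28.6, 32.8 and 32 RPKM with DMSO on day 5. With RXRi it was at 0, 0, 0.0349 and 0 RPKM, 0 to 2 reads a library, where 3 reads equal 0.0636 RPKM in the mean of the libraries. The difference was -4.92 ± 0.18 (adjusted p = 3.3e-13). Slc6a19, on chromosome 13 (73679745 to 73700780, GRCm38.p6), was at 15.2, 11.7, 32.7 and 27.7 RPKM with DMSO and at 0.0296, 0, 0.0516 and 0 RPKM with RXRi (-4.37 ± 0.50, adjusted p = 8.6e-07). Both genes were at the limit of detection in the RXRi libraries, so the size of their fall is bounded by depth and the pseudocount. Slc6a19 did not pass on day 1 (-0.38) or day 3 (-0.50), when DMSO itself was at or under 1.24 RPKM.

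Slc1a1 fell on every day, by 0.67 ± 0.17, 1.10 ± 0.17, 1.73 ± 0.17 and 2.34 ± 0.17. On day 1 it was at 1.01, 1.01 and 0.964 RPKM with DMSO and at 0.249, 0.198, 0.288 and 0.297 RPKM with RXRi, and that call was lost without culture 1 of DMSO (-0.66, adjusted p = 0.06) or culture 1 of RXRi (-0.63, 0.061). Slc1a5 and Slc6a6 fell less and from high levels. Slc1a5 was at 43.2, 50.8, 62.5 and 58.4 RPKM on day 5 with DMSO and at 31.7, 31.5, 41 and 39.2 RPKM with RXRi (-0.57 ± 0.13, adjusted p = 8.4e-04), and Slc6a6 fell by 0.56 ± 0.09. Within each group the spread between cultures was smaller than these differences. Slc36a1 passed on none of the 4 days (0.14, 0.17, 0.11 and 0.25).

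The basolateral list split. Of its 7 tested members, Slc7a8, Slc7a7 and Slc43a2 were lower on day 5 and Slc3a2, Slc7a6, Slc7a1 and Slc38a2 were higher. The lists overlap: Slc3a2, Slc7a1, Slc38a2 and the apical Slc1a5 are also on the list of members induced when amino acids run short. Their calls are thus counted in both places. Slc7a8, on chromosome 14 (54722215 to 54781886, GRCm38.p6), was at 13.3, 12.4, 17.9 and 17.7 RPKM with DMSO and at 0.0292, 0.059, 0.0849 and 0.0582 RPKM with RXRi (-3.93 ± 0.31, adjusted p = 8.7e-09). It had 2 to 10 reads in those RXRi libraries. Slc7a7 fell less, and was at 44.9, 44.8, 54.2 and 53.5 RPKM against 21.7, 19.6, 23.3 and 22.1 RPKM (-1.15 ± 0.13, adjusted p = 9.0e-07). Slc43a2 was at 4.13, 4.24, 5.55 and 5.31 RPKM against 0.974, 0.809, 1.08 and 0.87 RPKM (-1.58 ± 0.25, adjusted p = 3.1e-05). The untested Slc43a1 was at 0.111, 0.36, 0.386 and 0.571 RPKM against 0.0144, 0.00966, 0 and 0.00817 RPKM.

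Markers moved beside these genes. With RXRi on day 5, the 7 enterocyte markers summed to 70.2-126 RPKM against 11023-14631 with DMSO, and 7 of 7 were lower. The 5 Paneth markers summed to 8.37-17.1 against 2891-4069 RPKM, also with 5 of 5 lower, and the 5 fetal-like markers to 6951-7965 against 289-568 RPKM, with 5 of 5 higher. The 5 goblet markers summed to 603-1051 against 1869-2028 RPKM, with 5 of 5 lower, and of the 5 stem cell markers 4 were lower and 1, Slc12a2, higher. The 3 proliferation markers summed to 41.6-56.3 against 98.9-135 RPKM, with 3 of 3 lower. On day 1, when Slc3a1 and Slc7a9 (0.0197, 0.0972, 0.0855 and 0.104 RPKM with RXRi against 1.71, 2.07 and 2.76 RPKM, -1.50 ± 0.18) were already lower, the enterocyte markers summed to 73.8-83.3 against 219-303 RPKM. The part of these shifts in the transporter differences was not tested.

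Of the 9 members known to be induced when amino acids run short or by the integrated stress response, RXRi raised 7 on day 1, 5 on day 3, 6 on day 4 and 7 on day 5, and lowered 0, 0, 1 and 1. The member that fell was Slc1a5, and Slc1a4 passed on none of the days. Of all tested genes, 10.5%, 18.4%, 22.0% and 28.7% were higher on these days and 9.93%, 25.4%, 37.0% and 35.1% lower. The day 1 count includes Slc7a11 and Slc38a2, whose calls on that day were lost with any 1 culture left out. The medians of the list were 0.75, 0.66, 0.49 and 1.00, beside 0.00, -0.07, -0.13 and -0.06 for all tested genes. The 3 proliferation markers were lower with RXRi in 0, 2, 3 and 3 of 3 on these days and higher in 0, and the part of this in the result was not tested.

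Slc7a3, on the X chromosome (101079146 to 101090452, GRCm38.p6), had the largest rise of the members on days 3, 4 and 5. With DMSO it was nearly silent, at 0.254, 0.155 and 0.221 RPKM on day 1 and 0.866, 0.777, 0.512 and 0.348 RPKM on day 3. With RXRi it was at 4.63, 5.03, 4.34 and 4.4 RPKM on day 1 and 25.7, 26.1, 20.2 and 21.5 RPKM on day 3, mean levels 20.8-fold and 37.4-fold higher (2.20 ± 0.19 and 3.91 ± 0.19, adjusted p = 3.1e-07 and 5.7e-11). On day 5 it was at 17.3, 16.8, 14.4 and 13.3 RPKM against 0.513, 0.208, 0.35 and 0.402 RPKM (3.58 ± 0.19). No DMSO or atRA library of any day exceeded 2.53 RPKM, and no RXRi library was under 4.34 RPKM, so the RXRi groups stood apart on every day. Slc7a2, also a carrier of basic amino acids, went the other way at low levels, with a mean 3.04-fold lower on day 1. On day 5 it had 0 to 2 reads a library with RXRi against 27 to 65 with DMSO. Slc7a1, another carrier of basic amino acids, changed far less than Slc7a3 and from a higher level. Slc7a1 was at 16.9, 20.2, 22.4 and 22.7 RPKM with DMSO on day 5 and at 29.9, 29.7, 29.5 and 28.8 RPKM with RXRi (0.51 ± 0.12, adjusted p = 0.0013).

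Slc6a9, on chromosome 4 (117835258 to 117869305, GRCm38.p6), rose on all 4 days by 2.20, 2.49, 2.34 and 2.82 (each ± 0.21). On day 5 it was at 12.5, 12.4, 8.48 and 8.74 RPKM with DMSO and at 70.9, 87.5, 77.8 and 81.6 RPKM with RXRi, a mean 7.57-fold higher (adjusted p = 2.5e-09). The lowest RXRi library of any day, at 29.4 RPKM on day 1, lay above the highest DMSO library, at 18.6 RPKM on day 4.

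Slc7a11 carries cystine into the cell in exchange for glutamate and is known to rise with oxidative and amino acid stress. On day 5 it was at 8.09, 8.07, 2.69 and 2.94 RPKM with DMSO and at 38.6, 39.6, 31.9 and 29.5 RPKM with RXRi, a mean 6.4-fold higher (2.60 ± 0.51, adjusted p = 2.9e-04). Culture 1 stood above culture 2 in DMSO, and its standard error was the widest of the tested members. On days 1, 3 and 4 the RXRi libraries also lay above all DMSO libraries of their day, with differences of 1.64, 1.39 and 1.27 (adjusted p 0.031, 0.036 and 0.041). These calls were lost without culture 1 or 2 of DMSO on day 1 (1.61 with an adjusted p of 0.14, and 1.68 with 0.1) or culture 1 or 2 of RXRi (1.48 with 0.15, and 1.80 with 0.086). On day 3 they were lost without either culture of DMSO (1.68 with 0.052, and 1.11 with 0.2) or of RXRi (1.25 with 0.16, and 1.53 with 0.08), and on day 4 without culture 2 of DMSO (0.56 with 0.43) or either culture of RXRi (1.05 with 0.19, and 1.49 with 0.064). The day 5 call held without any 1 culture.

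**Figure D4:**
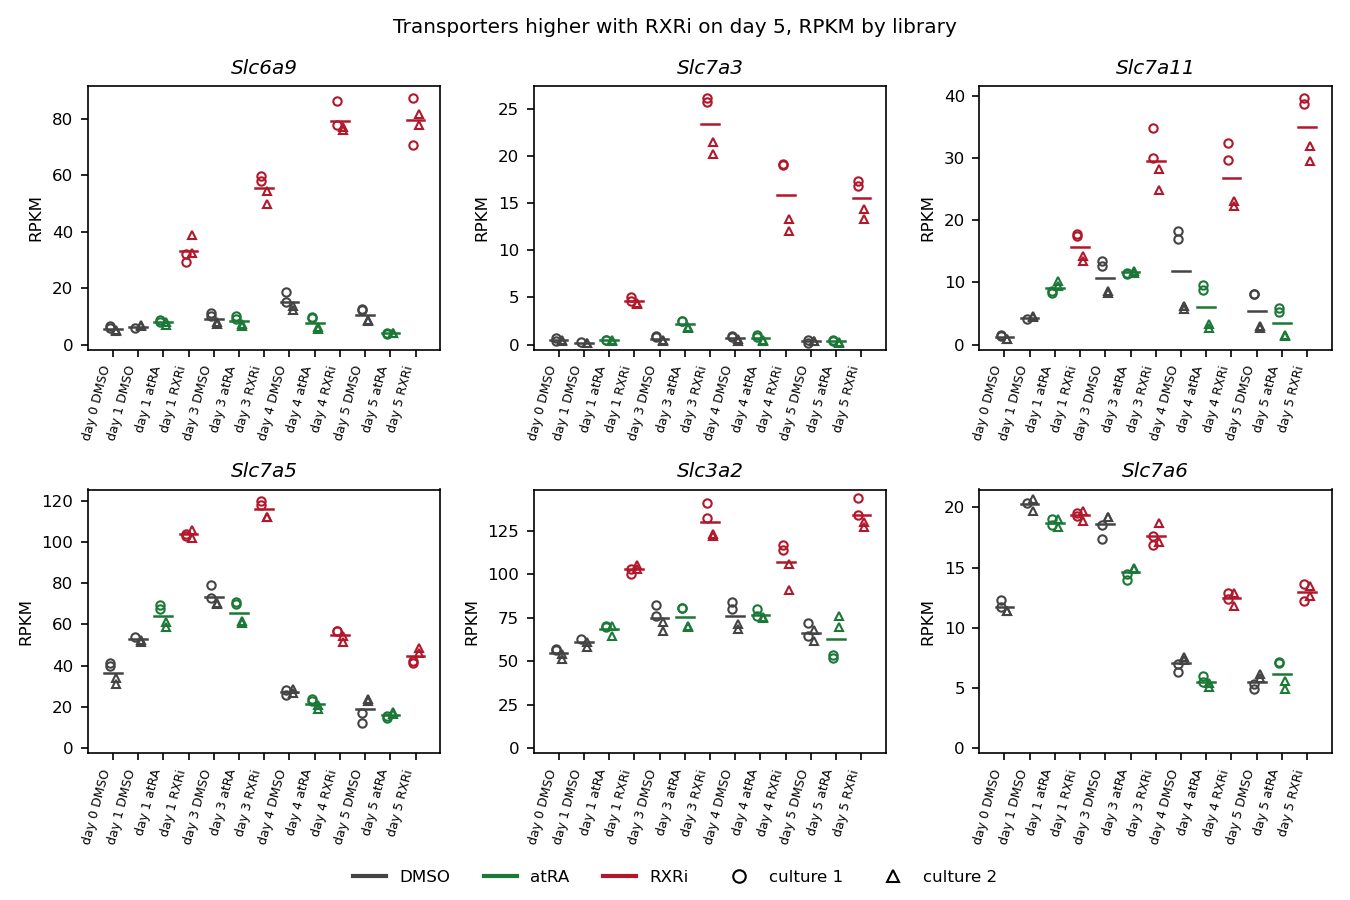
Panels plot RPKM (linear vertical axis) of 6 members in each library by group, with circles for culture 1, triangles for culture 2, lines for the mean of the 2 cultures and colour for the treatment. Slc7a3 and Slc6a9 separate RXRi from the other groups on every day, whereas Slc7a5 and Slc7a6 also drop between days 3 and 4 in all 3 treatments.

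Slc3a2, on chromosome 19 (8706882 to 8723369, GRCm38.p6), is the heavy chain that carries Slc7a5, Slc7a6, Slc7a7, Slc7a8 and Slc7a11 to the surface. On day 5 it was at 64.2, 71.9, 61.4 and 68.1 RPKM with DMSO and at 144, 134, 127 and 130 RPKM with RXRi (1.00 ± 0.13, adjusted p = 2.6e-06). The differences on days 1, 3 and 4 were 0.75, 0.79 and 0.49 (each ± 0.13), and the day 4 call was lost without culture 2 of DMSO (0.38, adjusted p = 0.05) or culture 1 of RXRi (0.37, 0.054). Slc7a5 was at 12, 16.8, 23.6 and 22.9 RPKM with DMSO on day 5 and at 42.3, 41.2, 46.1 and 48.4 RPKM with RXRi (1.24 ± 0.16, adjusted p = 3.4e-06), and it rose on all 4 days. Slc7a6 rose on days 4 and 5 alone (0.75 ± 0.10 and 1.10 ± 0.10, against -0.07 and -0.08 on days 1 and 3). Its RXRi level nevertheless went down between day 3 (16.9-18.7 RPKM) and day 4 (11.8-12.9 RPKM), and DMSO went down further, from 17.4-19.2 RPKM to 6.31-7.54 RPKM. Slc38a2 was higher on days 1, 4 and 5 (0.40, 0.27 and 0.40). Its day 1 call was lost without any 1 of the 4 cultures (0.38 to 0.43, adjusted p 0.051 to 0.078) and its day 4 call without culture 2 of DMSO (0.13, 0.4), culture 1 of RXRi (0.22, 0.19) or culture 2 of RXRi (0.31, 0.063).

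These light chains share 1 heavy chain, so their levels per gene length were also read as shares of the summed RPKM of these 5. On day 5, the cultures 1 and 2 of DMSO gave Slc7a7 52.6% and 51.9%, Slc7a5 16.9% and 22.4%, Slc7a8 15.1% and 17.2%, and Slc7a11 9.48% and 2.71%. With RXRi, Slc7a7 made up 18% and 19.9%, Slc7a5 36.5% and 41.5%, Slc7a8 0.0385% and 0.0629%, and Slc7a11 34.2% and 27%. The basolateral pair of Slc7a7 and Slc7a8 led in DMSO, and the pair of Slc7a5 and Slc7a11 led with RXRi. On day 3 of DMSO, Slc7a5 had 54.6% and 54.9% and Slc7a7 20.2% and 19.6%, so the balance in DMSO itself turned between day 3 and day 4, when Slc7a7 had 42.6% and 46.2%. These shares are values of RNA and say nothing of the protein pairs formed.

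**Figure D5:**
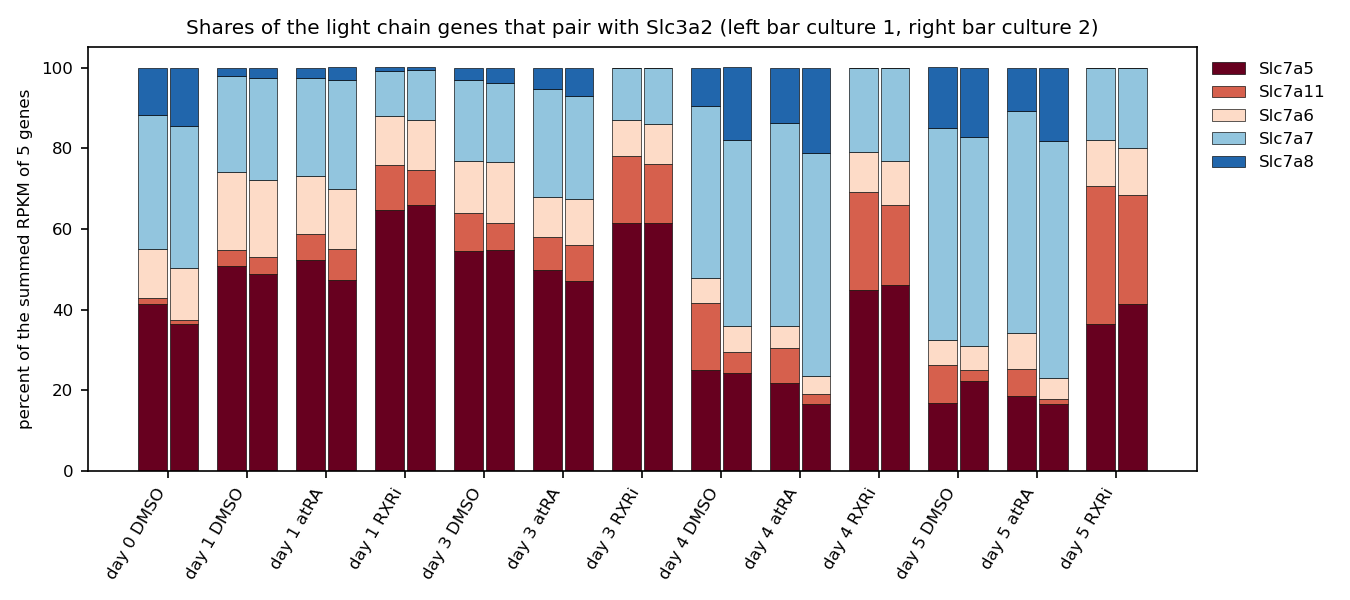
Stacked bars give each gene's percent (vertical axis, 0 to 100) of the summed RPKM of Slc7a5, Slc7a11, Slc7a6, Slc7a7 and Slc7a8, with 2 bars a group for cultures 1 and 2. In DMSO and atRA, Slc7a7 (light blue) grows on days 4 and 5, to 52.6% and 51.9% on day 5 of DMSO, while with RXRi it has 18% and 19.9%.

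Of the 31 tested members, 9 had no promoter window and were not searched: Slc1a5, Slc38a1, Slc6a6, Slc6a7, Slc6a8, Slc7a2, Slc7a3, Slc7a4 and Slc7a5. Promoter windows from RefSeq (GRCm38.p6, 250 bases before to 50 after a start) were at hand for the other 22. They were searched on both strands for the C/EBP-ATF response element that ATF4 binds, TGATGNAA, which 3 of these members held, Slc7a11, Slc1a4 and Slc7a7, and which 4.51% of all 27025 genes with a window hold. The matches stand in capitals, and are printed because these members differ in their RXRi response: Slc7a11 rose on day 5, Slc7a7 fell, and Slc1a4 did not pass (0.45, called with the culture as a replicate block at an adjusted p of 0.0062). All 3 are read along the gene, on the minus strand, from chr3:50443614-50443719, chr11:20332710-20332757 and chr14:54417938-54418125. The first of the pair in Slc7a11 begins 66 bases before the start and its mate lies on the opposite strand.
Slc7a11: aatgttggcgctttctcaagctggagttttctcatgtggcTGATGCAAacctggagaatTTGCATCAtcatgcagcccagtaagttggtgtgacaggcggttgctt
Slc1a4: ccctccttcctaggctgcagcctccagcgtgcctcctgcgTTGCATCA
Slc7a7: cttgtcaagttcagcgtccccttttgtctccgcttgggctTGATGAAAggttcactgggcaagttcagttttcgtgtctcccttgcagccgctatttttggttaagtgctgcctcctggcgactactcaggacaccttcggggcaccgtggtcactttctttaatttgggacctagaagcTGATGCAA
A match is a run of letters and not a shown site. Slc6a9, Slc3a2, Slc7a1 and Slc38a2, also on the stress list, were searched and held no match to the response element. Direct repeats of the kinds bound by retinoic acid and retinoid X receptors, DR5 and DR1 in their strict forms, were in 0 of the members' windows, and in 3 and 13 of all windows.

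Outside the members, 15 genes listed from textbook knowledge as ATF4 targets or stress response genes were all tested. With RXRi, 11 of 15 were higher on day 1, 9 on day 3, 6 on day 4 and 10 on day 5. The shares of all tested genes were 10.5%, 18.4%, 22.0% and 28.7%. In turn 0, 0, 1 and 1 were lower, beside 9.93%, 25.4%, 37.0% and 35.1%. Whether these genes and the members moved by a shared cause was not tested. The gene lower on days 4 and 5 was Shmt2, a mitochondrial serine enzyme. Among those higher on day 1 were the pseudokinase gene Trib3 (3.52 ± 0.64), the glutathione-degrading Chac1 (3.39 ± 0.47), the factor Atf5 (1.86 ± 0.22) and the asparagine synthetase Asns (0.98 ± 0.17), and Atf4 itself rose by 0.64 ± 0.11. On day 5, Asns did not pass (0.35 ± 0.17, adjusted p = 0.087), while Slc7a3 (3.58), Slc6a9 (2.82) and Slc7a11 (2.60) did. Partners of absorption outside the 60 members fell too. The peptide carrier Slc15a1, the proline carriers Slc6a20a and Slc6a20b, the aromatic amino acid carrier Slc16a10 and the peptidase Anpep were lower on days 4 and 5 of RXRi. On day 5, Anpep fell by 6.81 ± 0.23 and Slc6a20a by 3.11 ± 0.34.

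Of the 3 tested members of the lysosome, the amino acid sensor Slc38a9 was higher with RXRi on days 3 and 5 (0.29 ± 0.09 and 0.30 ± 0.09) and the glutamine exporter Slc38a7 on days 1, 3 and 5 (0.51, 0.35 and 0.31, each ± 0.12). These differences were small. On day 5 Slc38a9 lost its call without culture 1 of RXRi (0.27, adjusted p = 0.053) and Slc38a7 without culture 1 of DMSO (0.28, 0.1), culture 2 of DMSO (0.34, 0.056) or culture 2 of RXRi (0.26, 0.14). On day 3 Slc38a9 lost it without culture 2 of DMSO (0.25, 0.1) or culture 1 of RXRi (0.27, 0.084), Slc38a7 without the same cultures (0.27, 0.18 and 0.29, 0.15), and on day 1 Slc38a7 without culture 2 of RXRi (0.39, 0.089). The list of carriers of neurotransmitters, creatine and taurine had 5 tested members, Slc6a3, Slc6a4, Slc6a6, Slc6a7 and Slc6a8. RXRi lowered 2, 3, 4 and 5 of them on days 1, 3, 4 and 5, beside 9.93%, 25.4%, 37.0% and 35.1% of all tested genes. The glycine carrier Slc6a9 was put on the stress list and not on this one, and it rose on all 4 days. Each of the counts of lowered carriers holds a call that rests on few libraries. The day 5 count also holds Slc6a3, which passed the filter through DMSO and atRA libraries alone. Its lower level with RXRi is thus a description and not support for a change. On day 1, Slc6a4 lost its call without any 1 of the 4 cultures (-0.71 to -0.83, adjusted p 0.072 to 0.11), and on day 3 Slc6a6 did, as for the apical list. Slc6a8 lost it on day 4 without culture 1 of DMSO (-0.27, 0.19), culture 1 of RXRi (-0.34, 0.12) or culture 2 of RXRi (-0.41, 0.062) and under median-of-ratios scaling (-0.24, 0.23), and on day 5 without culture 1 of DMSO (-0.32, 0.092). Slc6a4 was at 7.53, 7.87, 11.3 and 12.1 RPKM with DMSO on day 5 and at 0, 0.053, 0 and 0 RPKM with RXRi, 0 to 3 reads a library (-3.38 ± 0.22, adjusted p = 6.9e-10). The glutamine carrier Slc38a1 was at 25.3, 28, 14.7 and 15.6 RPKM against 7.25, 6.45, 7.81 and 7.79 RPKM (-1.35 ± 0.27, adjusted p = 3.0e-04). Slc6a3 lay at 0.562, 0.586, 1.48 and 1.19 RPKM against 0.0835, 0, 0.0243 and 0 RPKM, a call (-0.90, adjusted p = 0.045) that was lost without culture 2 of DMSO (-0.62, 0.27), culture 1 of RXRi (-0.92, 0.11) or culture 2 of RXRi (-0.88, 0.13).

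Retinoic acid changed few members. On day 1, 0 were called by limma in either direction, although 5 had an unadjusted p under 0.05, all of them higher with atRA, beside 1.93% and 1.53% of all tested genes called. On day 3, 3 rose and 0 fell (4.32% and 4.36%). Slc7a9 was at 2.56, 3.15, 2.06 and 3.25 RPKM with DMSO and at 6.86, 7.55, 7.92 and 8.16 RPKM with atRA (1.21 ± 0.18, adjusted p = 2.2e-04), and Slc3a1 went from 6.59, 6.99, 4.32 and 5.59 RPKM to 13.7, 14.1, 11.7 and 12.1 RPKM (1.03 ± 0.19, adjusted p = 0.0016). The cystine pair was thus higher than DMSO, 2.77-fold for Slc7a9 and 2.2-fold for Slc3a1, a day before the rise in DMSO, without overlap. Slc7a3 went from 0.866, 0.777, 0.512 and 0.348 RPKM to 2.53, 2.49, 1.74 and 1.82 RPKM (0.95 ± 0.19, adjusted p = 0.0028), a call lost without culture 2 of DMSO (0.78, 0.07) or culture 1 of atRA (0.79, 0.059). Slc6a19 had a difference of 1.36 ± 0.50, from 0.639, 0.174, 0.643 and 0.457 RPKM to 2.36, 2.48, 2.68 and 3.69 RPKM, and did not pass. With the culture as a replicate block 5 members were called, adding Slc6a4 (0.66, adjusted p = 0.03) and Slc7a7 (0.40, 0.049). On that day the 7 enterocyte markers summed to 7884-8620 RPKM with atRA against 156-212 with DMSO, 7 of 7 higher. On day 1, with 0 members called, they summed to 2610-3836 against 219-303 RPKM. Fabp1 weighs most in such sums, with a mean of 5114 RPKM over all 51 libraries, beside 469 RPKM for Apoa1, the next. The part of these shifts in the result was not tested.

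On day 4, atRA raised 1 member and lowered 2, beside 3.58% and 7.35% of all tested genes. Slc43a2 went from 3.12, 3.01, 4.76 and 5.07 RPKM to 6.32, 6.43, 9.95 and 8.98 RPKM (0.84 ± 0.25, adjusted p = 0.04), Slc6a9 from 18.6, 15.2, 13.8 and 12.4 RPKM to 9.66, 9.3, 5.5 and 6.34 RPKM (-0.90 ± 0.21, 0.0097), and Slc6a7 fell by 0.37. All 3 calls were lost without culture 1 of DMSO (Slc43a2 0.57 with an adjusted p of 0.25, Slc6a9 -0.73 with 0.11, Slc6a7 -0.40 with 0.087) or culture 2 of atRA (0.59 with 0.31, -0.60 with 0.17, -0.30 with 0.21), and Slc6a7 also without culture 2 of DMSO (-0.34 with 0.11). The replicate block gave 7 calls, adding Slc7a1 (-0.37, adjusted p = 0.037), Slc1a1 (0.53, 0.02), Slc7a9 (0.44, 0.047) and Slc38a2 (-0.31, 0.038). Median-of-ratios scaling moved the median of all genes by 0.14 and the share of higher calls from 32.8% to 64.4%, with 2 members higher and 1 lower. On that day the enterocyte markers summed to 27278-29668 RPKM with atRA against 3725-4463 with DMSO (6 of 7 higher), the goblet markers to 2071-2707 against 1131-1283 RPKM (5 of 5 higher) and the fetal-like markers to 185-251 against 542-736 RPKM (4 of 5 lower). Their part in the result was not tested.

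On day 5, atRA lowered 3 members and raised 0, beside 2.89% and 2.14% of all tested genes. Slc6a9 was at 12.5, 12.4, 8.48 and 8.74 RPKM with DMSO and at 3.73, 4.11, 4.2 and 4.28 RPKM with atRA, 2.57-fold lower in mean (-1.16 ± 0.21, adjusted p = 0.0023). Slc38a2 fell by 0.45 ± 0.11 and Slc6a6 by 0.39 ± 0.09. Without culture 1 of DMSO all 3 lost their call (Slc6a9 -0.92 with an adjusted p of 0.054, Slc38a2 -0.41 with 0.16, Slc6a6 -0.30 with 0.26), as did Slc38a2 without culture 2 of atRA (-0.38, 0.08) and Slc6a6 without culture 1 of atRA (-0.25, 0.11). The atRA cultures stood apart for several absorptive members, with Slc6a19 at 9.51 and 9.71 RPKM in culture 1 and 34.4 and 33.8 RPKM in culture 2, and Slc3a1 at 59.2 and 57.4 against 91.4 and 87.2 RPKM. Slc6a3 lay at 0.467 and 0.273 RPKM in culture 1 and 4.56 and 4.37 RPKM in culture 2. On day 5 of atRA, 2 of 7 enterocyte markers were higher and 1 lower (21779-37010 against 11023-14631 RPKM in sum). Of the goblet markers, 3 of 5 were higher (2726-4381 against 1869-2028 RPKM), and 3 of 5 fetal-like markers were lower (77.1-325 against 289-568 RPKM). The part of these markers in the result was not tested.

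Slc6a9 was the 1 member whose atRA difference differed between days (F test, adjusted p = 0.024), beside 2.60% of all tested genes. Its differences were 0.27, -0.13, -0.90 and -1.16 on days 1, 3, 4 and 5. The call was lost without either culture of day 1 DMSO or day 1 atRA, or without culture 1 of day 5 DMSO, and with the replicate block 4 members were called, adding Slc7a3 (adjusted p = 0.0066), Slc7a9 (0.0082) and Slc1a4 (0.023).

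Compared directly, over the mean of the 4 days, 17 members were higher with atRA than with RXRi and 12 lower, beside 40.8% and 34.3% of all tested genes. The 4 highest with atRA were Slc3a1 (4.30 ± 0.10), Slc7a9 (3.72 ± 0.09), Slc7a8 (2.98 ± 0.16) and Slc6a19 (2.81 ± 0.25), followed by Slc6a4. The 5 highest with RXRi were Slc7a3 and Slc6a9 (-2.94 each, ± 0.09 and ± 0.10), Slc7a11 (-1.81 ± 0.26), Slc7a5 (-1.05 ± 0.08) and Slc3a2 (-0.73 ± 0.06). Of the 9 members of the amino acid stress list, 8 were lower with atRA than with RXRi and 1, Slc1a5, was higher. The comparisons of each drug with DMSO share the DMSO libraries. The differences given here do not use them, but their errors and tests come from the fit over all 13 groups, DMSO included. With the shallow DMSO library kept, 25 members were called in place of 29.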

How the data were processed

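The authors deposited 1 table of RPKM per gene and library, per the file headers, whose 52 columns were matched to the labels by title. Per the submitters' processing notes, bcl2fastq 2.17, STAR 2.5.2b and the build mm10 were used. Which program counted the reads, with what annotation and strand setting, is not given in the sources used here. Reads of overlapping or antisense genes cannot be told apart. RPKM divides by the library total, so large rises of some genes lower the others. Depth was recovered from the values, which were whole reads within 0.001 of a read for all 19708 genes above 0; 3 reads were taken as the floor, which covers counting error only.

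The scale is log2(RPKM + 1), which understates changes of low genes, and the duplicates of a culture were averaged to 26 culture means. Duplicates differed by more than counting error (chi-square per degree of freedom 1.94 to 14.4 over 25 pairs, and 5.01 to 102 between cultures). limma 3.58.1 in R 4.3.3 (trend and robust options) was fitted over all 13 groups, with 13 residual degrees of freedom, and tested on simulated data. Tests covered the 12443 genes that reached 1 RPKM in 4 or more libraries. Alternatives were a pseudocount of 0.1, no filter, median-of-ratios scaling, the shallow library kept, the culture as a block, limma without its options, and each culture left out in turn. The same animal pairs the cultures across groups; r between their deviations, taken from each group's mean, had a median of 0.149 (78 group pairs, -0.317 to 0.759, 47 of them above 0.1).

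The members and lists were chosen with earlier results of these data known. Named genes are members that were called with 1 sign in both cultures, up to 5 each way by size, the 5 most abundant members and the members and partners in the lists by role. Gene coordinates come from a RefSeq table built on GRCm38.p6, whose chromosomes carry the same coordinates as mm10, matched by Entrez identifier. One gene of the list of absorption partners is not reported here.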

Additional observations from a re-analysis of the deposited data

Results flagged for a closer look

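The RXRi difference of 15 members differed between days 1, 3, 4 and 5 by limma's F test. The adjusted p was 6.7e-09 for Slc3a1, 9.0e-09 for Slc7a9, 3.9e-06 for Slc7a6, 4.5e-06 for Slc6a4, 2.3e-05 for Slc7a8, 1.3e-04 for Slc1a1, 1.4e-04 for Slc6a19 and 3.5e-04 for Slc7a3. It was 0.001 for Slc7a7, 0.0022 for Slc6a7, 0.003 for Slc43a2, 0.0033 for Slc1a5, 0.013 for Slc6a6, 0.013 for Slc6a8 and 0.023 for Slc38a1. From day 1 to day 5 the difference moved by -3.89 for Slc3a1 and -3.42 for Slc7a9, and by 1.17 for Slc7a6 and 1.39 for Slc7a3. For Slc7a3 the step from day 1 to day 3 was larger, 1.71. The atRA difference of Slc6a9 also differed between days, with an adjusted p of 0.024.

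The library left out of day 1 DMSO held reads of members above the floor of 3 for Slc38a1 (4 reads) and Slc6a6 (4 reads).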

How the results depend on the processing

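Of 2198 values of called members over all alternatives, 1977 kept their direction and call, 219 kept their direction and lost the call, and 2 reversed: Slc7a1 from day 0 to day 1 with the shallow library kept (-0.91) and Slc38a10 from day 0 to day 5 under median-of-ratios scaling (0.10). With the shallow library kept, counts of called members were 0 for DMSO day 5 against day 4, 0 for atRA on day 4, 0 for atRA on day 5, 9 for RXRi on day 3 and 0 for the change of the atRA difference between days. For DMSO day 5 against day 4, a pseudocount of 0.1 gave 0 calls and no filter gave 1. With the replicate block, which uses the pairing of cultures by animal, counts were 9 for DMSO day 3 against day 1, 5 and 7 for atRA on days 3 and 4, and 4 for the change of the atRA difference; it moved no other count by over 1.5 times. Leaving out 1 culture gave 0 to 3 calls for DMSO day 3 against day 1, 0 to 7 for day 5 against day 4, 0 to 4 for atRA on day 4 and on day 5, 10 to 13 for RXRi on day 3, and 0 to 8 for the change of the atRA difference. The cause of these changes was not tested. With 1 culture left in a group, it is assumed to vary like the others. Depth limits the low members: 3 reads equal 0.0636 RPKM for Slc7a9 and 0.0626 RPKM for Slc6a19 in the mean of the RXRi libraries of day 5.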

Other observations

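Several members under the filter also differed in level between groups, given as values with no test. Slc1a3 was at 1.04, 0.861, 1.13 and 1.39 RPKM on day 0 and at 0 in all 4 libraries of RXRi on day 5, against 0.185, 0.264, 0.512 and 0.403 RPKM with DMSO and 0.933, 0.941, 0.668 and 0.703 RPKM with atRA. Slc7a15 was highest with atRA on day 5, at 0.659, 0.585, 2.01 and 1.56 RPKM.

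A pair of untested members was higher with RXRi. Slc6a14, a carrier of neutral and basic amino acids, was at 0.799, 0.481, 0.318 and 0.407 RPKM with RXRi on day 5 and at 0, 0, 0.0226 and 0.0204 RPKM with DMSO. Slc43a3, known as a purine base carrier, was at 0.707, 0.73, 0.631 and 0.589 RPKM with RXRi against 0.0316, 0.0329, 0 and 0.0159 RPKM with DMSO.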
